A study of Mus musculus with 9 samples.

Results

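The immunoglobulin light-chain loci were read by 33 of the 45101 probe sets on these arrays. A probe set is a group of short probes whose signals are combined into 1 intensity. The 33 were all probe sets whose annotated gene names included a kappa or lambda light-chain symbol, alone or among others, and they were taken with no limit on brightness. Of these, 29 carried kappa names and 4 carried lambda names.

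B cell precursors assemble the heavy chain first and display it with the surrogate light chain as the pre-B cell receptor. At the pre-B stage they then open the kappa locus, and later the lambda locus, transcribe the unrearranged segments and join a variable to a joining segment ahead of the constant region. The kappa enhancers hold sites for IRF4 and IRF8, which bind beside the ETS factors PU.1 and SPI-B, and for the E proteins, while IL-7 acting through STAT5 is known to hold the kappa locus back.

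Total RNA came from cultured mouse pre-B cells labelled as null for IRF4 and IRF8, a genotype that all 9 arrays share. In the 6 arrays without added IRF4, Irf8 1416714_at read 2250 to 4426, Irf8 1448452_at 2715 to 4086, Irf4 1421173_at 4719 to 7926 and Irf4 1421174_at 202 to 381. Which part of either gene is missing is not stated, so these bright signals do not show the disruption and do not check the label. The 3 groups of 3 arrays were IL7hi (5 ng IL-7), IL7lo (0.25 ng IL-7) and +IRF4 (5 ng IL-7, with IRF4 reintroduced). The labels disagree on the volume that the IL-7 amounts refer to. They do not say how IRF4 was put back, and no group was labelled as handled the same way without IRF4, so IRF4 and its means of delivery cannot be told apart. Whether the 3 arrays of a group stem from separate cultures is not stated, and the p-values then reflect array-to-array spread alone, which may be technical. The number of arrays limits the precision.

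The 45037 probe sets other than controls were tested together with limma on log2(intensity + 16), and "rose" or "fell" stands for a Benjamini-Hochberg adjusted p under 0.05. Array medians were 139.7 to 151.3. A mean intensity of 108, the 40th percentile of all probe sets, is used below as a mark for dim signal, since no detection calls were used here. All 9 measured pre-B cell markers had a mean above that mark, and they moved with the groups. In low IL-7, 6 of the 9 rose and none fell, among them Dntt (TdT) by 3.28, the IL-7 receptor chain Il7r by 2.83 and the adaptor Blnk by 1.42. With IRF4 1 rose, Cd79b by 0.47, a call lost without IRF4 replicate 2 or with the 6 compared arrays alone (adjusted p up to 0.0756). Against low IL-7, 7 were lower with IRF4. Their summed intensity was 40086 to 48897 in high IL-7, 65249 to 70964 in low IL-7 and 42549 to 46136 with IRF4. The part of this shift in the light-chain changes was not tested. In RNA from a whole culture, fewer cells of a type and less RNA per cell cannot be told apart.

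Kappa transcripts with the constant region rose steeply when IRF4 was put back and modestly in low IL-7. Against high IL-7, the 3 probe sets that name the kappa constant region rose by 5.01 to 6.04 on the log2 scale with IRF4 and by 0.52 to 1.76 in low IL-7. Another probe set, annotated to the variable segment Igkv8-30 alone, moved alongside them. These 4 had the largest rises of all 45037 probe sets in the IRF4 comparison. The next largest was 4.75, for Mycn, a MYC family factor.

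Igkc encodes the constant region of every kappa chain, and Igkj1 is a joining segment used in kappa rearrangement. The 3 constant-region probe sets carry the same 5 names, Igkv6-23, Igkv4-53, Igkv8-30, Igkj1 and Igkc. By these names they may share a target, so they are not counted as separate lines of evidence. All 4 probe sets with large rises have the suffix _x_at, which marks probes that can also bind other transcripts, so their signal is not assigned to a single segment.

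The brightest of them with IRF4, 1427660_x_at, read 111, 118 and 110 in the 3 high IL-7 arrays, 259.9, 320.1 and 225 in low IL-7, and 5403, 7215 and 7216 with IRF4. The 3 groups did not overlap, and each IRF4 array was over the whole range of the low IL-7 arrays. The rise with IRF4 was 5.67 (SE 0.14, n = 3 arrays a group, adjusted p = 4.97e-09 by limma), a 58.5-fold ratio of mean intensities. In low IL-7 it was 1.13 (SE 0.14, adjusted p = 0.000155), a 2.37-fold ratio.

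Probe set 1452417_x_at read 45.5, 46.2 and 52.5 in high IL-7, 179, 236.5 and 189 in low IL-7, and 3438, 4519 and 4693 with IRF4. This is the member with the largest low IL-7 change, 1.76 (SE 0.14, limma adjusted p = 5.26e-06). Its IRF4 change was 6.04 (SE 0.14, limma adjusted p = 3.21e-09). Its high IL-7 mean lay under the mark for dim signal, so both sizes depend on the added 16 and no ratio of means is given.

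Probe set 1427455_x_at read 107, 120.3 and 110.3 in high IL-7, 154, 198 and 155 in low IL-7, and 3158, 4314 and 5153 with IRF4. Again the groups were in the same order with no overlap. It rose by 5.01 (SE 0.16, limma adjusted p = 3.96e-08) with IRF4, a 37.5-fold ratio over a high IL-7 mean of 112.4, just above the mark for dim signal. In low IL-7 it rose by 0.52 (SE 0.16, 95% interval 0.16 to 0.88, limma adjusted p = 0.0387). That call was lost without any 1 high or low IL-7 array or without IRF4 replicate 2 (adjusted p up to 0.152), and with pseudocount 64, quantile normalization or median scaling (0.0519 to 0.0873).

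The Igkv8-30 probe set, 1452463_x_at, read 18.5, 11.4 and 10.3 in high IL-7, 43.1, 42.6 and 36.2 in low IL-7, and 1341, 1893 and 2710 with IRF4. Both groups without IRF4 stood well below the mark for dim signal. The low IL-7 change of 0.95 (SE 0.20, limma adjusted p = 0.00497) is therefore a difference between dim signals and was not called with a pseudocount of 64 (0.44, adjusted p = 0.116). The IRF4 change was 6.04 (SE 0.20, limma adjusted p = 4.41e-08), and between 4.67 and 7.09 under pseudocounts of 64 and 1.

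**Figure D1:**
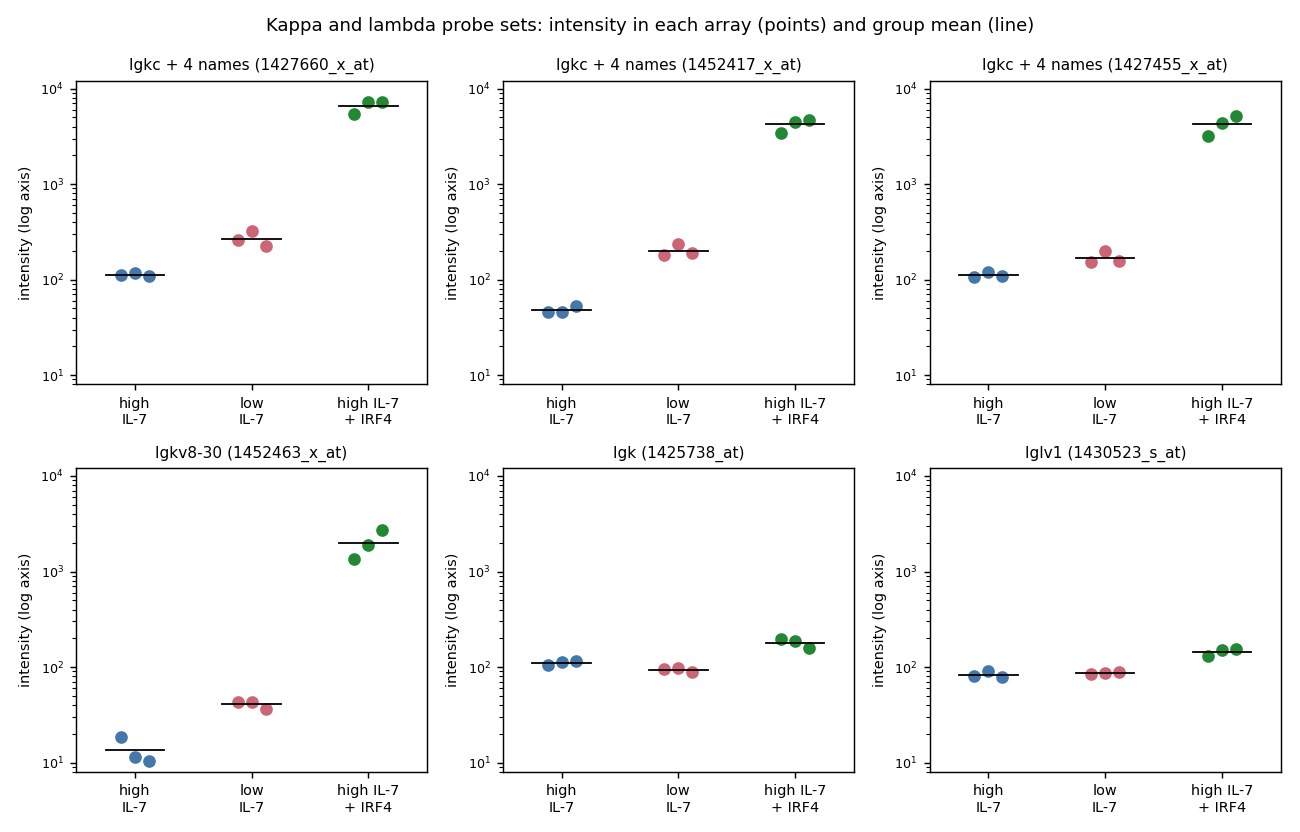
Intensity on a log axis (arbitrary units) of 6 light-chain probe sets in each of the 9 arrays, by group, with points for arrays and a line for the group mean. The 3 probe sets that name Igkc and the one for Igkv8-30 step up from high IL-7 to low IL-7 and again, by far more, with IRF4, while Igk 1425738_at and Iglv1 1430523_s_at reach no more than 194.9 and 152.7 with IRF4.

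The gain in low IL-7 was a small part of the gain with IRF4. As a difference of mean intensity from high IL-7, 1427660_x_at gained 155 units in low IL-7 and 6498 with IRF4, so the low IL-7 gain was 2.39% of the other. For the other 3 probe sets this share was 1.38% to 3.68%. The arrays with IRF4 were compared directly with the low IL-7 arrays, and these 4 probe sets were higher with IRF4 by 4.28 to 5.09 (limma adjusted p from 1.79e-08 to 7.32e-08). The comparisons share arrays, so they are not independent of each other.

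The 3 IRF4 arrays differed in how far kappa rose. The ratio of the highest to the lowest IRF4 array was 1.34 for 1427660_x_at, 1.37 for 1452417_x_at, 1.63 for 1427455_x_at and 2.02 for Igkv8-30. IRF4 replicate 1 was the lowest in all 4. Of the 2 Irf4 probe sets, 1421174_at read 1088, 1379 and 2543 in IRF4 replicates 1, 2 and 3, against 202 to 381 in high IL-7 and 257 to 316 in low IL-7. It rose by 2.45 with IRF4 (SE 0.28, limma adjusted p = 0.000861), a call kept in all 18 alternatives. The other, 1421173_at, read 3702 to 4256 with IRF4, 4719 to 5791 in high IL-7 and 7161 to 7926 in low IL-7. With 3 arrays, no relation between Irf4 and kappa signal was tested.

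Over all 33 light-chain probe sets, 6 rose with IRF4 (18.2%) and none fell, where 0.953% of all probe sets rose and 0.711% fell. At an unadjusted limma p under 0.05, 13 were higher and none lower with IRF4, and 8 were higher and 2 lower in low IL-7. The share of all probe sets at that threshold is not given here. These and later counts at an unadjusted p therefore have no background beside them. In low IL-7, 5 rose (15.2%) and 1 fell, where 12.1% of all probe sets rose and 11.3% fell. In this fit, which has no replicate block, the low IL-7 count is thus near the background, and it includes the 4 probe sets above. The median change of the 33 was 0.15 with IRF4 and 0.06 in low IL-7, against medians of 0.00 and 0.03 over all probe sets. Between IRF4 and low IL-7, 7 were higher with IRF4 (21.2%) and none was lower, where 10.7% of all probe sets were higher and 14% lower. With median scaling, 11 members and 13.7% of all probe sets were higher and 11% of all probe sets lower, so that the higher share of all calls in that comparison went from 43.4% to 55.4%. None was lower at an unadjusted limma p under 0.05 either. In either direction, 1.66% of all probe sets were called with IRF4, 23.5% in low IL-7 and 24.7% between those 2 groups. Without IL7hi replicate 1 and IRF4 replicate 3, whose 18S control signals were low, 6 members rose with IRF4 and 6 in low IL-7. Over all probe sets, that fit called 460 with IRF4 and 10465 in low IL-7, in either direction.

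A change of at least 1 was called for 4 of the 33 with IRF4 and for 2 in low IL-7, against 0.335% and 1.73% of all probe sets. Between IRF4 and low IL-7 it was again 4, against 1.61%. With IRF4, all 3 arrays were above all 3 high IL-7 arrays for 14 members and below them for none, as for 8.47% and 9.3% of all probe sets. In low IL-7 they were above for 11 and below for 3, as for 20.9% and 17.4%. The IRF4 arrays were above all low IL-7 arrays for 11 and below them for none, as for 17.8% and 21.4%.

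Only 11 of the 33 had a mean over the 9 arrays above the mark for dim signal, and 2 of the 4 large rises, 1452417_x_at and Igkv8-30, had at least 1 group below it. In all, 19 members lay below the mark in every group, with overall means of up to 84.8. For these, a difference that missed the test may reflect signal too dim to measure.

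**Figure D2:**
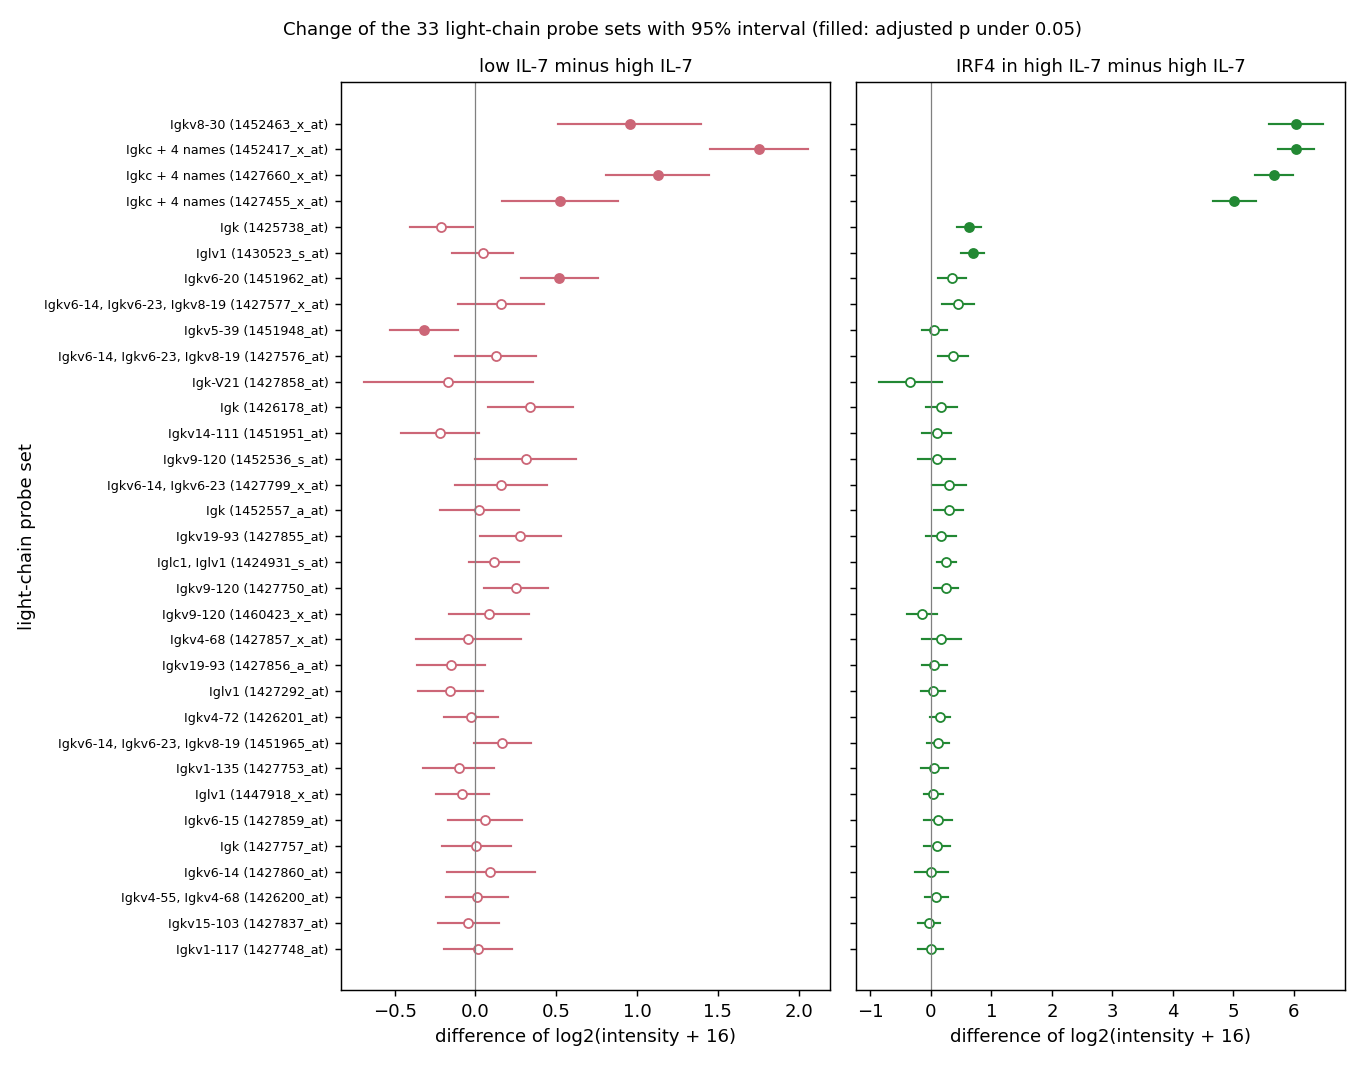
Difference of log2(intensity + 16) from high IL-7 for the 33 light-chain probe sets in low IL-7 (left) and with IRF4 (right), with 95% intervals; filled points had an adjusted p under 0.05. The horizontal scales differ: 4 probe sets lie between 5.01 and 6.04 with IRF4 and between 0.52 and 1.76 in low IL-7, and no other member exceeds 0.69 with IRF4.

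Another 4 probe sets carry the locus symbol Igk alone, which does not say what part of the kappa locus they read. With IRF4 1 of these 4 rose, where 0.953% of all probe sets did. None of the 4 changed in low IL-7 (at an unadjusted limma p under 0.05, 1 was higher and 1 lower), where 23.5% of all probe sets did. The one that rose, 1425738_at, read 104.5, 113.5 and 115.1 in high IL-7, 94.9, 97.9 and 87.9 in low IL-7, and 194.9, 187 and 159 with IRF4. The IRF4 arrays were above all others, a rise of 0.63 (SE 0.09, limma adjusted p = 0.00422). The ratio of means was 1.63, over a high IL-7 mean of 111, just above the mark for dim signal. All 3 low IL-7 arrays lay below all 3 high IL-7 arrays, the opposite direction to the constant-region probe sets, with a change of -0.21 (SE 0.09, limma adjusted p = 0.114). That change passed the test without the arrays of low 18S signal (adjusted p = 0.0493).

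Igk probe set 1426178_at read 126, 107 and 120.4 in high IL-7, 145, 160.2 and 154 in low IL-7, and 107, 146 and 155 with IRF4. The low IL-7 arrays were all above the high IL-7 arrays, by 0.34 (95% interval 0.08 to 0.60, limma adjusted p = 0.0615), while the IRF4 arrays spanned both. With the replicate number as a block in the 6 high and low IL-7 arrays, the adjusted p was 0.0191. The other 2 did not pass against high IL-7. 1452557_a_at changed by 0.02 in low IL-7 (95% interval -0.22 to 0.27) and 0.29 with IRF4 (0.05 to 0.54), and 1427757_at by 0.01 (-0.21 to 0.22) and 0.10 (-0.11 to 0.32).

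Probe sets named for variable segments only, apart from Igkv8-30, moved little. Of the 5 that name several segments, none changed against high IL-7 with IRF4 or in low IL-7, where 1.66% and 23.5% of all probe sets did. At an unadjusted limma p under 0.05, 3 of the 5 were higher with IRF4. Among the 5 were 4 that name Igkv6-23, one of the segments also named by the constant-region probe sets. Their changes with IRF4 were 0.45 for 1427577_x_at, 0.37 for 1427576_at, 0.30 for 1427799_x_at and 0.12 for 1451965_at. The first 2 of these and 1451965_at carry the same 3 names. With the replicate number as a block over the 9 arrays, the first 2 passed the test and 1451965_at did not.

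Of the 17 probe sets with a single variable segment, 2 rose and 1 fell in low IL-7, and 1, that of Igkv8-30, rose with IRF4. The low IL-7 rises, 11.8% of the 17, are at the background of 12.1%. The others were Igkv6-20 and Igkv5-39, which are named here because they passed, after their values were seen. Igkv6-20 read 51.1, 47.6 and 53.9 in high IL-7, 83.1, 92.9 and 65.2 in low IL-7, and 66.5, 76.9 and 64.2 with IRF4. It was lowest in every high IL-7 array, and rose by 0.52 in low IL-7 (SE 0.11, limma adjusted p = 0.0044). With IRF4 its change was 0.35 (limma adjusted p = 0.172).

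Igkv5-39 read 51.9, 42.9 and 51.5 in high IL-7, 34.5, 34.9 and 38.3 in low IL-7, and 44.2, 52.2 and 58.0 with IRF4. The low IL-7 arrays were below all others. It fell by 0.32 in low IL-7 (SE 0.10, limma adjusted p = 0.0314), and the adjusted p rose above 0.05 on leaving out IL7hi replicate 1 or 3 or any low IL-7 array (up to 0.109). Both segments were below the mark for dim signal in every group.

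The remaining 14 single-segment probe sets lay within -0.34 and 0.25 with IRF4 and within -0.22 and 0.31 in low IL-7. They were read along most of the variable cluster. In the order of the RefSeq gene table for GRCm38.p6, used for order alone, 14 variable segments or pseudogenes lie between Igkv6-14 and Igkj1 and 159 between Igkv1-135 and Igkj1. Igkv8-30 has 31, Igkv6-20 has 20 and Igkv5-39 has 40. Igkv9-120, with 142 segments between it and Igkj1, was read by 3 probe sets. The brightest, 1452536_s_at, read 338, 303 and 319 in high IL-7, 385, 411 and 406 in low IL-7, and 260.4, 385 and 399 with IRF4. Its low IL-7 arrays were above its high IL-7 arrays by 0.31 (limma adjusted p = 0.149), and its IRF4 arrays overlapped both. The Igkv19-93 probe set 1427855_at changed by 0.28 in low IL-7 (limma adjusted p = 0.108) and the dimmer 1427856_a_at by -0.15, so the 2 went opposite ways without passing.

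With the replicate number as a block in the 6 high and low IL-7 arrays, 9 members rose in low IL-7 rather than 5, while the calls in either direction over all probe sets went from 10572 to 13129. The 4 added were Igk 1426178_at, both brighter Igkv9-120 probe sets and Igkv19-93 1427855_at. The share of all probe sets that rose in that fit is not given here, so the 9 have no such background beside them.

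Lambda chains are the minor light-chain class of the mouse. Of the 4 lambda probe sets, 1 rose with IRF4, where 0.953% of all probe sets did. None changed in low IL-7 (none at an unadjusted limma p under 0.05 either), where 23.5% of all probe sets did. With only 4 probe sets, that absence does not set lambda apart from the background. All 4 name Iglv1, a lambda variable segment, and 1 also names the constant region Iglc1.

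The one that rose, 1430523_s_at, read 81.0, 91.3 and 78.1 in high IL-7, 83.8, 85.9 and 89.5 in low IL-7, and 129, 151 and 152.7 with IRF4. High and low IL-7 overlapped, and every IRF4 array was above both. The rise was 0.69 (SE 0.09, limma adjusted p = 0.00169). In low IL-7 the change was 0.04, with a 95% interval of -0.14 to 0.23. The IRF4 arrays were also above the low IL-7 arrays, by 0.64 (SE 0.09, limma adjusted p = 0.000219). The mean of this probe set was above the mark for dim signal in the IRF4 group alone.

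The probe set naming Iglc1 and Iglv1, 1424931_s_at, read 71.1, 71.1 and 71.9 in high IL-7, 83.4, 79.2 and 73.9 in low IL-7, and 88.6, 91.5 and 84.8 with IRF4. The groups did not overlap, in the same order as the kappa constant-region probe sets. Arrays did not overlap upward for 8.47% of all probe sets with IRF4 and for 20.9% in low IL-7. The changes were 0.26 with IRF4 (95% interval 0.10 to 0.41, limma adjusted p = 0.119) and 0.12 in low IL-7 (adjusted p = 0.288). Iglv1 1427292_at read 128, 146 and 158 in high IL-7, 129, 131 and 121 in low IL-7, and 146, 159 and 138 with IRF4. Its groups overlapped, with a change of 0.04 with IRF4 (95% interval -0.17 to 0.24). Iglv1 1447918_x_at read 66.7, 72.7 and 72.5 in high IL-7, 70.2, 63.9 and 63.4 in low IL-7, and 69.0, 73.3 and 77.4 with IRF4. It also overlapped, with a change of 0.04 (-0.12 to 0.21). The interval for the rise of 1430523_s_at with IRF4, 0.50 to 0.87, lay above those of the other 3, a difference that was not itself tested.

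Other immunoglobulin chains were set beside the light chains. The surrogate light chain, made of the Igll1 and VpreB proteins, pairs with the heavy chain before a light chain exists. Its probe sets and that of Vpreb3, a related protein of B cell precursors, were 5 in all. With IRF4 1 of the 5 rose, where 0.953% of all probe sets did. It was Vpreb3, which read 3133 to 3914 in high IL-7 and 5685 to 5855 with IRF4, a change of 0.76 (limma adjusted p = 0.00036). In low IL-7 Vpreb3 read 7254 to 7562, a rise of 1.11 (limma adjusted p = 2.44e-06). Vpreb1 rose in low IL-7 by 0.25 (limma adjusted p = 0.0173), and was not called under median scaling, without a variance trend or without IL7hi replicate 2 or 3 or IL7lo replicate 1 (adjusted p up to 0.0761). With the replicate number as a block in the 6 arrays, the bright Igll1 probe set (0.14, adjusted p = 0.0417) and the probe set shared by Vpreb2 and Vpreb1 (0.27, adjusted p = 0.00504) passed too. Of the 5, 4 were lower with IRF4 than in low IL-7, with differences of -0.47 to -0.35, where 14% of all probe sets were lower. Igll1 1420176_x_at lost that call under median scaling (limma adjusted p = 0.0602).

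Of 23 heavy-chain probe sets, none rose and none fell with IRF4 (limma), where 0.953% and 0.711% of all probe sets did. Among the 23, 5 were higher at an unadjusted limma p under 0.05. Over the 23, changes with IRF4 ran from -0.08 to 0.38, smaller than the kappa rises. That contrast is limited by the starting levels. Ighm 1427329_a_at and 1427351_s_at already read 13462 to 15528 and 14176 to 15554 in high IL-7. No probe set read above 24762 in any array, so those Ighm probe sets had little room to rise. Only 11 of the 23 had a mean above the mark for dim signal. In low IL-7 2 rose (8.7%, below the 12.1% of all probe sets): Ighv14-2 1455530_at by 1.27 (limma adjusted p = 1.07e-05) and Ighm 1427329_a_at by 0.24 (limma adjusted p = 0.00633). The Ighm call was lost under median scaling or without a variance trend (adjusted p up to 0.056). Against low IL-7, 1 of the 23 was lower with IRF4 (4.35%, where 14% of all probe sets were), Ighv14-2 1455530_at, at -1.02 (limma adjusted p = 5.82e-05). Another 2 were higher (8.7%, where 10.7% of all probe sets were), Ighm 1425247_a_at and 1427758_x_at, both at 0.31. Those 2 calls were lost without single arrays of each group or with the 6 compared arrays alone (adjusted p up to 0.162).

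Known regulators of the light-chain loci were read through a list of 34 genes, 32 of them measured by a probe set with 1 gene name and all 32 with a mean above the mark for dim signal. In low IL-7, 19 rose and none fell (limma; none was lower at an unadjusted p under 0.05 either), with a median change of 0.41, where 12.1% of all probe sets rose and 11.3% fell, or 16.5% and 17% of those above the mark. The leading ones were Rag1 and Rag2, the recombinase subunits, at 4.67 and 3.37, Bach2, a B cell repressor, at 1.73, and Foxo1, an activator of the recombinase genes, at 1.49. With IRF4, 6 rose and 1 fell, with a median of 0.15, where 1.42% and 0.962% of probe sets above the mark did. Of these 6 rises against high IL-7, Spib, the ETS partner of IRF4, led at 1.51 (SE 0.11, limma adjusted p = 4.88e-05). Bach2 followed at 1.03, Mef2c, a transcription factor of early B cells, at 0.99 and Ikzf1, which encodes Ikaros, at 0.74. Rag1 and the coactivator gene Pou2af1, named after their values were seen, completed the 6. The fall was that of Irf4 1421173_at, the brighter of the Irf4 probe sets, while 1421174_at rose. Against low IL-7, 3 of the 32 were higher with IRF4 and 13 lower, where 15.8% and 18.9% of probe sets above the mark were.

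The recombinase genes and the kappa constant region went to unlike heights in the 2 conditions. Rag1 read 124 to 259 in high IL-7, 3916 to 5531 in low IL-7 and 406 to 638 with IRF4. Rag2 read 133 to 146, 1484 to 1694 and 139 to 201. Both were highest in low IL-7, where the kappa probe sets were between the other groups. With IRF4 Rag1 rose by 1.42 (SE 0.24, limma adjusted p = 0.0141), a call lost without IRF4 replicate 2, with the 6 compared arrays alone or without both arrays of low 18S signal (adjusted p up to 0.0673), and Rag2 changed by 0.30 (limma adjusted p = 0.359). Against low IL-7, the IRF4 arrays differed by -3.25 for Rag1, -3.07 for Rag2 and 0.57 for Spib, which read 1999 to 2643 in high IL-7, 4361 to 4735 in low IL-7 and 5788 to 7281 with IRF4. Spib followed the order of the kappa probe sets with no overlap, as did Ikzf1, which read 2683 to 2733, 3529 to 3922 and 4297 to 4672. The difference of Ikzf1 between IRF4 and low IL-7, 0.27 (limma adjusted p = 0.00967), was not called with quantile normalization (adjusted p = 0.0594).

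Pou2af1 rose by 0.22 with IRF4 (limma adjusted p = 0.0447). That call and the fall of Irf4 1421173_at (-0.40, adjusted p = 0.0438) were each lost in over 10 alternatives, with adjusted p up to 0.22 and 0.159, among them most fits without 1 array: each of the 9 but IL7lo replicate 1 for Pou2af1, and each but IL7hi replicate 2 and IRF4 replicate 3 for Irf4.

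**Figure D3:**
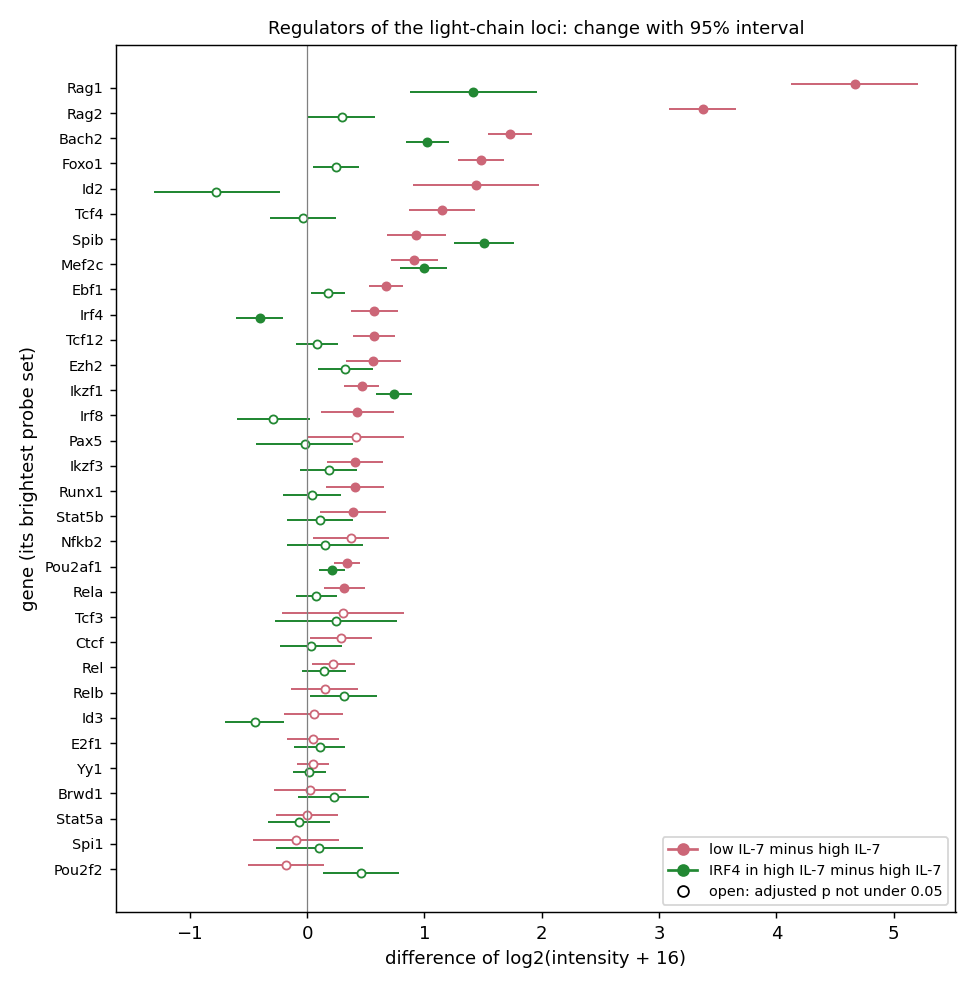
Difference of log2(intensity + 16) from high IL-7 for 32 regulators of the light-chain loci, in low IL-7 and with IRF4, with 95% intervals; open points had an adjusted p not under 0.05. Rag1 and Rag2 stand out in low IL-7 at 4.67 and 3.37, and Spib, Bach2, Mef2c and Ikzf1 lie above 0 in both comparisons.

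Markers of other cell types moved with the groups in part. The summed intensity of 6 mature B cell markers was 4195 to 5066 in high IL-7, 3260 to 3899 in low IL-7 and 8576 to 10630 with IRF4. With IRF4 3 of the 6 rose, Ms4a1 by 2.97, Tnfrsf13c by 1.37 and Cd22 by 0.64, and Cxcr5 fell by 0.82. Of all probe sets, 0.953% rose and 0.711% fell with IRF4. The call of Cd22 was lost without IL7hi replicate 3 or IRF4 replicate 2 (adjusted p up to 0.0666). That of Cxcr5 was lost without IRF4 replicate 2 or 3, with the 6 compared arrays alone or without the 2 arrays of low 18S signal (up to 0.087). Fcer2a was below the mark for dim signal in every group. In low IL-7 none of the 6 rose and 3 fell, among them Ms4a1, which fell by 2.69. Of all probe sets, 12.1% rose and 11.3% fell in low IL-7. None of the measured markers was at 0. The part of these markers in the kappa rises was not tested.

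The sum of 6 plasma cell markers was 15227 to 15538, 13038 to 13383 and 12444 to 13754, with none called with IRF4 (limma; 1 was higher and 3 lower at an unadjusted p under 0.05) and Jchain and Tnfrsf17 below the mark in every group. In low IL-7 Prdm1, which encodes BLIMP1, rose by 2.86 (limma adjusted p = 2.95e-07) and Xbp1, a factor of secretory cells, fell by 1.30 (limma adjusted p = 1.46e-06), and none of the other 4 was called. The sum of 7 stromal markers ran from 3331 to 19309 within high IL-7, 1654 to 4570 in low IL-7 and 2071 to 12420 with IRF4. In low IL-7 their median change was -1.75, and 2 fell, Col3a1 by 2.74 and Pdgfra by 2.66. Both calls were lost without IL7hi replicate 2 or 3 or any low IL-7 array, and that of Col3a1 also with pseudocount 64 or the replicate block (adjusted p up to 0.113). None was called with IRF4 (limma; none passed an unadjusted p under 0.05 either), with a median of -1.09. Over the same high IL-7 arrays the sum of the 3 kappa constant-region probe sets ran from 263 to 285, against 569 to 755 in low IL-7 and 11998 to 17063 with IRF4. The sums of T cell markers (1579 to 2080 over all arrays), myeloid markers (842 to 1055) and erythroid markers (144 to 168) overlapped between high IL-7 and IRF4 arrays, and none of those markers was called with IRF4 (limma; 1 T cell marker was lower at an unadjusted p under 0.05). In low IL-7, Itgam, which encodes the myeloid integrin CD11b, rose by 2.01 (limma adjusted p = 6.77e-06) and was the only one of these markers called. It read 37.6 to 50.2 in high IL-7, 172 to 259 in low IL-7 and 43.1 to 69.8 with IRF4. The myeloid sum was 924.4 to 1055 in low IL-7, above the 856.2 to 878.6 of high IL-7. The part of the plasma cell, stromal and myeloid markers in the low IL-7 kappa change was not tested.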

How the data were processed

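RNA of 9 samples was hybridised to Affymetrix mouse arrays, per the labels' protocols. The authors deposited intensity values on a linear scale for each probe set in each array. The summary method and scaling are not given in the sources read for this work. Array medians differed by 0.12 on the log2 scale, and no normalization was added.

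Values were taken as log2(intensity + 16). Group means were fitted over all 9 arrays with limma 3.58.1 in R 4.3.3 (eBayes with a trend), with Benjamini-Hochberg adjustment over 45037 probe sets and calls at 0.05. The 64 control probe sets were left out. The fit was also run on simulated data with independent noise in each array. Deviations in the real data correlated between some arrays, so that run does not vouch for the calls. Figures were drawn with matplotlib 3.10.9.

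Names came from the platform annotation: 34945 probe sets had 1 symbol, 932 several and 9160 none. Of the 23 light-chain symbols, 22 were in the RefSeq table of GRCm38.p6. No sequence of these genes was used here.

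Values in every array are given for light-chain probe sets with a called change of at least 1 (up to 14), for those named for a constant region or whole locus and for all lambda probe sets. Other members are given by counts and ranges. A regulator or marker gene was read by its brightest probe set with 1 name, and up to 4 regulators by p are named per direction. The light-chain probe sets and gene lists were chosen with earlier results of these data known.

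Groups and replicate numbers came from the sample titles, and no batch is given there. Deviations from group means correlated between same-numbered high and low IL-7 arrays (r = 0.48, 0.28 and 0.16). On the data alone, those numbers were therefore taken as pairs in an alternative fit of that comparison. The main fit did not use the pairs, so its SEs, intervals and adjusted p-values ignore them. The pairing is weak for replicates 2 and 3, since IL7hi replicate 2 and IL7lo replicate 3 gave r = 0.265 and IL7hi replicate 3 and IL7lo replicate 2 gave r = 0.115. Same-numbered arrays did not correlate in this way with the IRF4 arrays (r from -0.32 to 0.03). Some differently numbered arrays did. IL7hi replicate 1 and IRF4 replicate 3 gave r = 0.327, and IL7hi replicate 2 and IRF4 replicate 1 gave r = 0.306. Correlations of this size thus also arose without a shared number. Alternatives were 2 other pseudocounts, a filter on dim probe sets, quantile normalization, median scaling, no variance trend, the 6 compared arrays alone, a replicate block and leaving out each array. Leaving out the 2 arrays of low 18S signal and the block in 6 arrays were added after the data were seen.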

Additional observations from a re-analysis of the deposited data

How the results depend on the processing

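The 4 large kappa rises with IRF4 kept their direction and call in all 18 alternatives run, as did those of Igk 1425738_at and, in the 17 that tested it, Iglv1 1430523_s_at. The number of light-chain probe sets that rose in low IL-7, 5, was 3 with pseudocount 64, 9 with the replicate block in 6 arrays and 4 to 7 without 1 array. The number that fell, 1, was 0 with the filter, which removed Igkv5-39, and 0 to 2 without 1 array. With IRF4, 6 rose, and 8 did with the replicate number as a block over 9 arrays. Against low IL-7, 7 were higher with IRF4, 10 with that block and 11 with median scaling, 7 to 9 without 1 array. The pairing changed no other count of light-chain calls by over 1.5 times, and with the block over 9 arrays the low IL-7 count was again 5. Over all probe sets, the 749 IRF4 calls were 365 with the 6 compared arrays, 460 without the arrays of low 18S signal and 366 to 1054 without 1 array (366 without IRF4 replicate 2, 398 without IRF4 replicate 3, 459 without IL7hi replicate 2 and 462 without IL7lo replicate 3). The cause of these differences was not tested. No value changed sign while called. Dim signal limits 22 of the 33 light-chain probe sets, whose means lay below 108.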
